A study of Mus musculus with 9 samples.

Results

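The genes described are those of the interleukin-2 (IL2) receptor and of the other receptors that share the common γ chain: Il2ra, Il2rb, Il2rg, Il4ra, Il7r, Il9r, Il15ra and Il21r. They were found by their symbols in the annotation of the array. Of these 8 genes, 7 had a named probe set, 13 probe sets in all, out of 18193 genes and 45037 probe sets tested. Il2rg, the gene of the common γ chain itself, had none in the annotation used and was not analysed here. The values are log2 expression values from 9 whole-genome Affymetrix mouse arrays, summarised by the authors with Robust Multichip Analysis (RMA). A difference of 1 on this scale is a change of 2-fold.

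The cells started as CD4+EGFP− T cells sorted from the spleens of Foxp3EGFP reporter mice on a C57BL/6 (B6) background. The arrays fell into 3 groups of 3: conventional T cells (Tconv), cells converted toward induced regulatory T cells with purified TGFβ1 (purTGFβ-iTreg), and cells converted with the TGFβ of platelet lysates (pltTGFβ-iTreg). The iTreg cultures ran for 72 hours on plate-bound anti-CD3 at 2.5 µg/ml with anti-CD28 at 1 µg/ml, IL2 at 100 U/ml, and either purified TGFβ1 at 5 ng/ml or platelet lysate made by freezing and thawing platelets of wild-type C57BL/6 mice. All the iTreg cultures therefore received added IL2, the ligand of the receptor studied here. The dose of TGFβ1 in the lysates, the age and sex of the mice, and any sorting after culture are not given in the sources used here. For all 9 samples the labels carry a treatment entry that has Tconv cells exposed to 5 ng/ml TGFβ1 over 72 hours, so the treatment of the Tconv group is not settled by the labels.

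Receptors of the common γ chain family carry the signals of IL2, IL4, IL7, IL9, IL15 and IL21, cytokines on which T cells depend for survival, division and differentiation. Each pairs the γ chain with a chain of its own: the IL2 and IL15 receptors also share the β chain encoded by Il2rb, and each adds an α chain, Il2ra (CD25) or Il15ra, that raises affinity for its cytokine. The γ chain recruits the kinase JAK3 and the partner chain recruits JAK1, and these act mainly through the STAT5 factors for IL2, IL7, IL9 and IL15, through STAT6 for IL4 and through STAT3 for IL21. In CD4 T cells, Il2ra rises on activation and stays high on regulatory T cells, whereas Il7r marks resting and memory cells.

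Il2ra was 3.21-fold higher in purTGFβ-iTreg and 3.31-fold higher in pltTGFβ-iTreg than in Tconv, and the iTreg groups lay side by side. Il7r rose 2.05-fold over Tconv in pltTGFβ-iTreg. Il4ra, Il15ra and Il21r fell in both iTreg groups, by 1.93-, 2.13- and 2.34-fold with purified TGFβ1 and by 1.57-, 1.46- and 1.48-fold with platelet lysate. Il7r, Il15ra and Il21r were 1.46- to 1.58-fold higher with platelet lysate than with purified TGFβ1. Il2rb was called changed in no comparison, and Il9r lay at the level of transcripts that were absent.

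The 5 genes that changed are shown here by the 250 bases before a transcript start, so that neighbours that moved in opposite or in the same direction can be compared. By RefSeq gene order, Il2ra, which rose, and Il15ra, which fell, are adjacent protein-coding genes on chromosome 2, and Il4ra and Il21r, which both fell, are adjacent on chromosome 7. The sequences are from RefSeq on assembly GRCm38.p6, printed 5′ to 3′ on the strand of the gene, and capitals mark matches to 5 searched motifs. Of the 8 genes, 7 had a promoter entry, in 8 windows.
Il2ra, chr2:11642542-11642791, plus strand: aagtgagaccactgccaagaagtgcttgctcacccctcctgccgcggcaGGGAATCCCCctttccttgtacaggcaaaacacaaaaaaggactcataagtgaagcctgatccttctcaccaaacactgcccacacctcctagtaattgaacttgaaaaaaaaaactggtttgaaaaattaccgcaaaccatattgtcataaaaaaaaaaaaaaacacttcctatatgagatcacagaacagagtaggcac
Il15ra, the second of its 2 windows, chr2:11705462-11705711, plus strand: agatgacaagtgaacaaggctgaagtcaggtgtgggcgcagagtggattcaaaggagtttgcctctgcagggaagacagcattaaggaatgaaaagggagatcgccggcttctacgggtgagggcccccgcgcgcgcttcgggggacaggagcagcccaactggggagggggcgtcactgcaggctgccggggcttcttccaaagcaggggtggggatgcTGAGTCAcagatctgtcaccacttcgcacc
Il4ra, chr7:125552021-125552270, plus strand: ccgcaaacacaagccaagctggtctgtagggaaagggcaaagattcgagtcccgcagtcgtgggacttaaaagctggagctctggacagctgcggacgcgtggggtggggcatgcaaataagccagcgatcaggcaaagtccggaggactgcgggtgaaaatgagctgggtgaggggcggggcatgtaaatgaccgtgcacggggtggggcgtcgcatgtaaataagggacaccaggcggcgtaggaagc
Il21r, chr7:125603179-125603428, plus strand: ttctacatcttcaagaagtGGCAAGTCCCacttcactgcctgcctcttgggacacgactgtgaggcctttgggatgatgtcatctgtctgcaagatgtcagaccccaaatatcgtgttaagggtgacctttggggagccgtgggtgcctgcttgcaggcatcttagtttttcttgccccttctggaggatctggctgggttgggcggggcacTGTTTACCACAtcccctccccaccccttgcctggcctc
Il7r, chr15:9529877-9530126, minus strand: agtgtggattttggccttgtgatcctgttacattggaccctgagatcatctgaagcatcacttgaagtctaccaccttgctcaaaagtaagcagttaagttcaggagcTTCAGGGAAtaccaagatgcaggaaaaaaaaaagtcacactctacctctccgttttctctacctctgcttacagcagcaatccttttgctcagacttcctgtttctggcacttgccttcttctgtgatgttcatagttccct

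Both strands of each window were searched for TTCNNNGAA (STAT), TGTTTAC (forkhead), TGTGGT (RUNX), TGANTCA (AP-1) and, for NF-kB, GGGA and CC separated by any 4 bases. The Il2ra window held an NF-kB match, GGGAATCCCC, at 201 to 192 bases before the start, and 17.6% of 32851 promoter windows of the same length held a match to that motif. The Il7r window held a STAT match, TTCAGGGAA, at 142 to 134 bases before the start, found in 7.02% of windows. In the Il15ra window shown, an AP-1 match, TGAGTCA, lay 30 to 24 bases before the start, a motif held by 6.75% of windows. Il21r had 3 matches: an NF-kB match on the reverse strand at 231 to 222 bases, a forkhead match at 38 to 32 bases (3.17% of windows) and a RUNX match on the reverse strand at 33 to 28 bases (14.0% of windows), of which the last 2 overlap. The Il4ra window and the first Il15ra window held none of the 5 motifs. These are matches of letters only, and the arrays do not measure binding.

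The groups differed in more than their culture. Xist, transcribed from the inactive X of female cells, read 10.63 to 10.94 in Tconv and 3.37 to 3.99 in the iTreg arrays, and the Y-linked Eif2s3y read 2.59 to 2.82 in Tconv and 8.82 to 9.18 in the iTreg arrays. Sex and treatment therefore cannot be told apart in any comparison with Tconv, whereas the iTreg groups share this pattern. The 15 readings of Xist in iTreg and of Y-linked genes in Tconv, transcripts that should be absent, spanned 2.30 to 3.99 and serve here as the level of an absent transcript. Foxp3, the defining factor of regulatory T cells, read 3.66 to 3.90 on its 1 named probe set in all 9 arrays, inside that range. The iTreg label is therefore not borne out by this transcript, but whether this probe set can detect Foxp3 was not tested. By the cutoffs given below, 29.3% of all genes were called in purTGFβ-iTreg against Tconv and 28.5% in pltTGFβ-iTreg against Tconv. Among markers of T cells, 0 of 10 rose and 4 fell in purTGFβ-iTreg against Tconv, and 2 rose and 3 fell in pltTGFβ-iTreg, with summed linear levels of 22272 to 24470 in Tconv, 18171 to 18970 in purTGFβ-iTreg and 19319 to 20048 in pltTGFβ-iTreg. Their part in the results below was not tested.

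Markers of other cells moved in part as well. Of 7 B cell markers, Ighm rose and Cd79b fell in both iTreg groups, and the summed level was 1439 to 1516 in Tconv, 2286 to 2562 in purTGFβ-iTreg and 2088 to 2169 in pltTGFβ-iTreg, with Ms4a1 at 3.53 to 3.95. Most of that sum came from Ighm, at 10.29 to 10.40 in Tconv and 10.94 to 11.26 in the iTreg arrays. The median log2 difference of the 7 markers was −0.27, −0.22 and −0.03, against −0.17, −0.16 and 0.01 for all genes. Of 7 CD8 or NK markers, Klrd1 rose and Cd8b1 fell in both, with sums of 1651 to 1873, 2134 to 2356 and 1728 to 2025. Most of these sums came from Nkg7, which read 10.51 to 11.04 and was not called. Klrd1 was also lower in pltTGFβ-iTreg than in purTGFβ-iTreg, at a log2 difference of −1.27 (limma adjusted p = 0.000527). Of 9 myeloid markers 0 were called by limma in any of the 3 comparisons (6, 6 and 0 had an unadjusted p under 0.05), and their sums were low at 209 to 234, 167 to 182 and 166 to 180. Hdc was the single call among 6 mast cell or basophil markers (sums 122 to 135, 71 to 83 and 77 to 88). Among 7 platelet markers, Itga2b and Itgb3 fell against Tconv (sums 399 to 409, 188 to 210 and 229 to 262), Itgb3 was higher in pltTGFβ-iTreg than in purTGFβ-iTreg, and the platelet-restricted Pf4 and Ppbp read 2.30 to 3.48 in all 9 arrays. Whether any of these cells contributed to the receptor values was not tested. In bulk RNA, fewer cells with a transcript and less of it per cell cannot be told apart.

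A call required both an adjusted p under 0.1 and a log2 difference above 0.5 in size, called the fold cutoff here. These are the authors' own cutoffs, which their design text gives as a log2 ratio over 0.5, rounded there to 1.4-fold, and a false discovery rate under 10%. Adjusted p-values are from limma, two-sided, with Benjamini-Hochberg adjustment over all probe sets tested, and each gene is represented by its brightest probe set. In purTGFβ-iTreg against Tconv, 4 of the 7 receptor genes were called, 1 higher and 3 lower, where 29.3% of all genes were called (14.5% higher and 14.9% lower). In pltTGFβ-iTreg against Tconv, 5 of 7 were called, 2 higher and 3 lower, where 28.5% of all genes were called (13.9% higher and 14.7% lower). Between the iTreg groups 3 of 7 were called, all higher in pltTGFβ-iTreg, where 4.11% of all genes were called (1.54% higher and 2.57% lower). The arrays of the groups did not overlap for 5, 6 and 5 of the 7 genes in these comparisons, against 62.7%, 59.0% and 28.2% of all genes. The median log2 difference of the 7 genes was −0.19, −0.21 and 0.30, and that of all genes −0.17, −0.16 and 0.01. Quantile normalising the values again moved the share of called genes that were higher from 49.3% to 38.6% in purTGFβ-iTreg against Tconv and from 48.5% to 38.4% in pltTGFβ-iTreg against Tconv. Centring the array medians moved these shares the other way, to 56.5% and 55.3%.

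**Figure D1:**
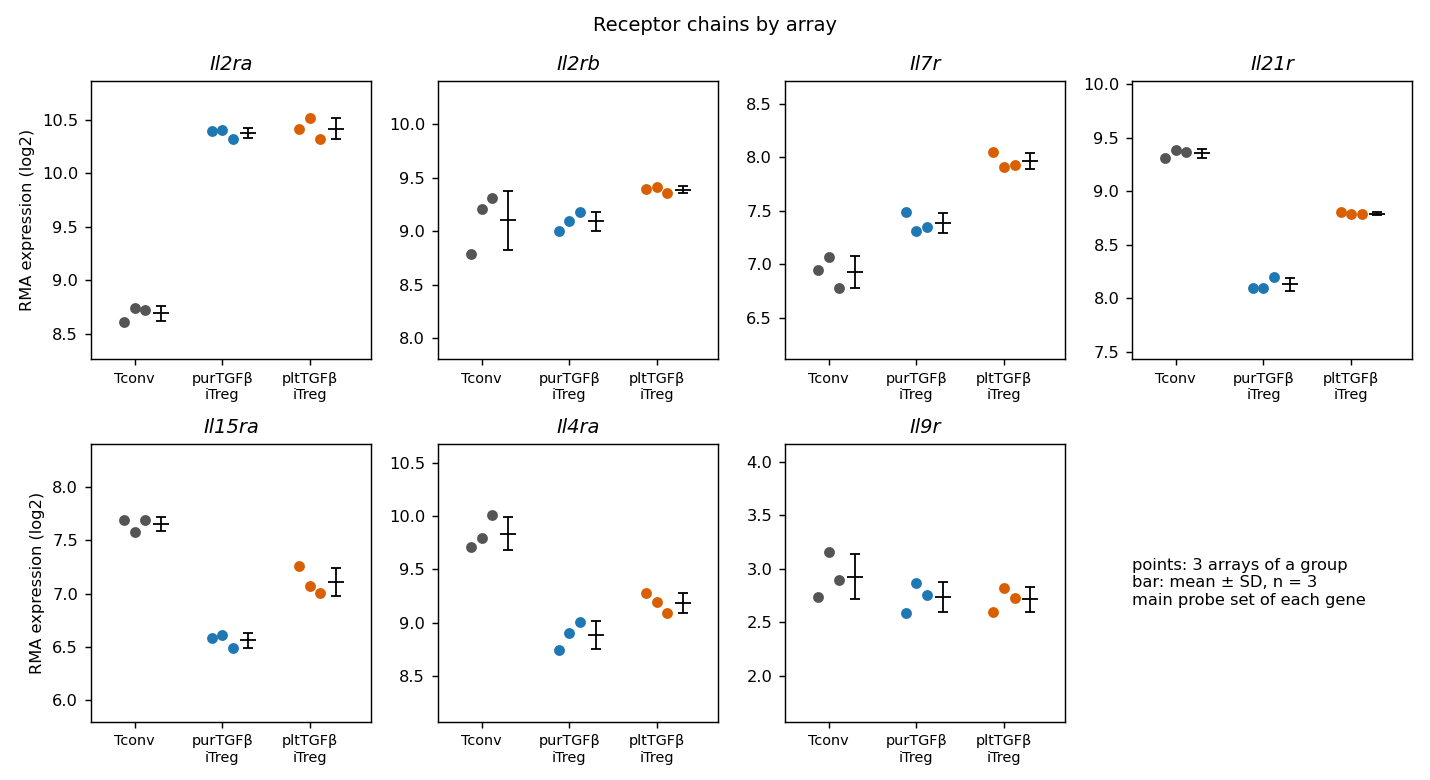
RMA expression (log2) of the 7 measured receptor genes in Tconv, purTGFβ-iTreg and pltTGFβ-iTreg, with 1 point per array and the mean ± SD (n = 3) as a bar; each panel has its own range of the same height. Il2ra is higher in both iTreg groups, Il4ra, Il15ra and Il21r are lower in both, and Il7r steps up from Tconv to purTGFβ-iTreg to pltTGFβ-iTreg.

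The chains of the IL2 receptor came first. Il2ra, which turns the intermediate-affinity IL2 receptor into the high-affinity form, read 8.61, 8.74 and 8.72 in Tconv, 10.40, 10.40 and 10.32 in purTGFβ-iTreg and 10.42, 10.51 and 10.32 in pltTGFβ-iTreg. All 6 iTreg arrays lay above all 3 Tconv arrays, and the iTreg groups overlapped. Group means were 8.69 ± 0.07, 10.37 ± 0.05 and 10.42 ± 0.10 (SD, n = 3 each). The log2 difference from Tconv was 1.68 in purTGFβ-iTreg (SE 0.08, limma adjusted p = 2.18e-08) and 1.73 in pltTGFβ-iTreg (SE 0.08, adjusted p = 2.43e-08). The iTreg groups differed by 0.04, with a 95% interval of −0.14 to 0.22 and a limma adjusted p of 0.889. The other Il2ra probe set gave 2.09, 2.04 and −0.05 for these 3 differences. The first 2 of these values passed the test and the last did not.

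Il2rb, the signalling chain shared by the IL2 and IL15 receptors, read 8.79, 9.21 and 9.31 in Tconv, 9.01, 9.09 and 9.18 in purTGFβ-iTreg and 9.39, 9.42 and 9.36 in pltTGFβ-iTreg. The pltTGFβ-iTreg arrays lay above all the others, by a margin smaller than the spread of Tconv, whose first array was the lowest of the 9. Against Tconv the log2 difference was −0.01 in purTGFβ-iTreg (95% interval −0.28 to 0.26, limma adjusted p = 0.961) and 0.29 in pltTGFβ-iTreg (interval 0.02 to 0.55, adjusted p = 0.0748), the latter under the fold cutoff. The iTreg groups differed by 0.30 (interval 0.03 to 0.56, adjusted p = 0.257). The second probe set of Il2rb was not called either, at 0.18, 0.43 and 0.26. Its 0.43, for pltTGFβ-iTreg against Tconv, had a limma adjusted p of 0.0148 and missed only the fold cutoff.

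Il15ra, the α chain that presents IL15 to Il2rb and the γ chain, read 7.69, 7.57 and 7.68 in Tconv, 6.58, 6.62 and 6.49 in purTGFβ-iTreg and 7.25, 7.07 and 7.00 in pltTGFβ-iTreg. The 3 groups did not overlap, with Tconv highest and purTGFβ-iTreg lowest. Their means were 7.65 ± 0.07, 6.56 ± 0.07 and 7.11 ± 0.13 (SD, n = 3 each). Against Tconv the log2 difference was −1.09 in purTGFβ-iTreg (SE 0.09, limma adjusted p = 1.23e-06) and −0.54 in pltTGFβ-iTreg (SE 0.09, adjusted p = 0.00038). Il15ra was 0.55 higher in pltTGFβ-iTreg than in purTGFβ-iTreg (SE 0.09, limma adjusted p = 0.00321).

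Several of these Il15ra values lay close to the log2 cutoff of 0.5. The difference between pltTGFβ-iTreg and Tconv was no longer called at −0.48 with array medians centred, −0.49 with array weights, −0.50 as the mean of both probe sets and −0.49 without the third pltTGFβ-iTreg array. The difference between the iTreg groups was no longer called at 0.47 without the first pltTGFβ-iTreg array. The other Il15ra probe set gave −1.02 and 0.56, both called, for purTGFβ-iTreg against Tconv and for pltTGFβ-iTreg against purTGFβ-iTreg, and −0.46, not called, for pltTGFβ-iTreg against Tconv. Thus Il2ra and its chromosomal neighbour Il15ra, the α chains of related receptors, moved in opposite directions in both iTreg groups.

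Il7r, the α chain of the IL7 receptor, also pairs with Crlf2 in the receptor for TSLP. It read 6.95, 7.07 and 6.78 in Tconv, 7.49, 7.32 and 7.35 in purTGFβ-iTreg and 8.05, 7.91 and 7.93 in pltTGFβ-iTreg. The groups did not overlap and were ordered Tconv, purTGFβ-iTreg, pltTGFβ-iTreg from low to high, with means of 6.93 ± 0.15, 7.39 ± 0.09 and 7.97 ± 0.08 (SD, n = 3 each).

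In pltTGFβ-iTreg, Il7r rose by 1.03 over Tconv (SE 0.09, limma adjusted p = 3.67e-06) and stood 0.58, or 1.50-fold, above purTGFβ-iTreg (SE 0.09, adjusted p = 0.00343). A difference of 0.45 between purTGFβ-iTreg and Tconv had a limma adjusted p of 0.00211 and missed only the fold cutoff. It was called at 0.51 with array medians centred and at 0.52 without the second Tconv array. The other probe set of Il7r gave 0.32, not called, and 0.94 and 0.62, both called, in the order used above.

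The chains of the IL4 and IL21 receptors fell. Il21r, the chain that binds IL21, read 9.31, 9.39 and 9.37 in Tconv, 8.09, 8.09 and 8.20 in purTGFβ-iTreg and 8.80, 8.79 and 8.78 in pltTGFβ-iTreg. The groups did not overlap, and the gaps between them were several times the spread within each, with means of 9.36 ± 0.04, 8.13 ± 0.06 and 8.79 ± 0.01 (SD, n = 3 each). Against Tconv, Il21r changed by −1.23 in purTGFβ-iTreg (SE 0.07, limma adjusted p = 1.08e-07) and by −0.56 in pltTGFβ-iTreg (SE 0.07, adjusted p = 6.55e-05). It was 0.66 higher, or 1.58-fold, in pltTGFβ-iTreg than in purTGFβ-iTreg (SE 0.07, limma adjusted p = 0.000238). Il21r has 1 named probe set, so no second reading was available.

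Il4ra binds IL4 and, paired with Il13ra1 in place of the γ chain, also serves IL13. It read 9.71, 9.79 and 10.01 in Tconv, 8.75, 8.90 and 9.01 in purTGFβ-iTreg and 9.28, 9.19 and 9.09 in pltTGFβ-iTreg. Tconv was clearly highest, and the iTreg groups, though not overlapping, were closer at their nearest arrays than the arrays within each group were spread. Means were 9.84 ± 0.15, 8.89 ± 0.13 and 9.19 ± 0.09 (SD, n = 3 each). Against Tconv, Il4ra changed by −0.95 in purTGFβ-iTreg (SE 0.10, limma adjusted p = 1.34e-05) and by −0.65 in pltTGFβ-iTreg (SE 0.10, adjusted p = 0.000306). From one iTreg group to the other the log2 difference was 0.30 (95% interval 0.08 to 0.53, limma adjusted p = 0.148), which was not called. The other 2 probe sets of Il4ra gave −0.92 and −0.59 for purTGFβ-iTreg against Tconv, both called, and −0.49, not called, and −0.53, called, for pltTGFβ-iTreg against Tconv. Between the iTreg groups they gave 0.43 (limma adjusted p = 0.0397), which missed only the fold cutoff, and 0.07 (adjusted p = 0.848).

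Il9r, the receptor chain for IL9, read 2.74, 3.15 and 2.89 in Tconv, 2.59, 2.87 and 2.76 in purTGFβ-iTreg and 2.60, 2.82 and 2.73 in pltTGFβ-iTreg. Every one of these values lay within the range of the absent transcripts. Its differences of −0.19, −0.21 and −0.02 were not called, with limma adjusted p-values of 0.204, 0.161 and 0.964. No level of Il9r can be read from these arrays beyond that range.

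**Figure D2:**
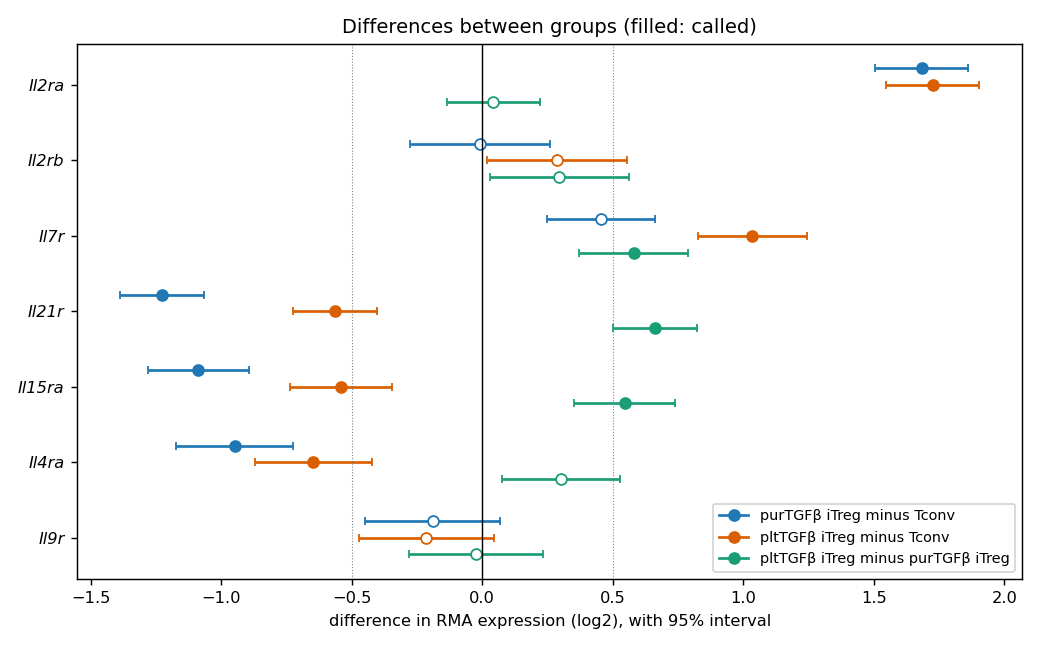
Differences in RMA expression (log2) of the 7 receptor genes for the 3 comparisons, each point with its 95% interval; filled points were called and dotted lines mark ±0.5. The calls between the iTreg groups, in green, are Il7r, Il21r and Il15ra, at 0.58, 0.66 and 0.55.

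Set against all 18193 genes, the difference between pltTGFβ-iTreg and purTGFβ-iTreg stood at the 99.2 percentile for Il21r, 98.8 for Il7r and 98.7 for Il15ra, with Il4ra at 95.3 and Il2rb at 95.1. Il2ra stood at 59.1 and Il9r at 40.5. Over all 13 probe sets, 2 were called higher and 6 lower in purTGFβ-iTreg against Tconv, 4 higher and 4 lower in pltTGFβ-iTreg against Tconv, and 5 higher and 0 lower between the iTreg groups, where 25.8%, 25.3% and 3.25% of all probe sets were called. No gene had probe sets called in opposite directions.

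**Figure D3:**
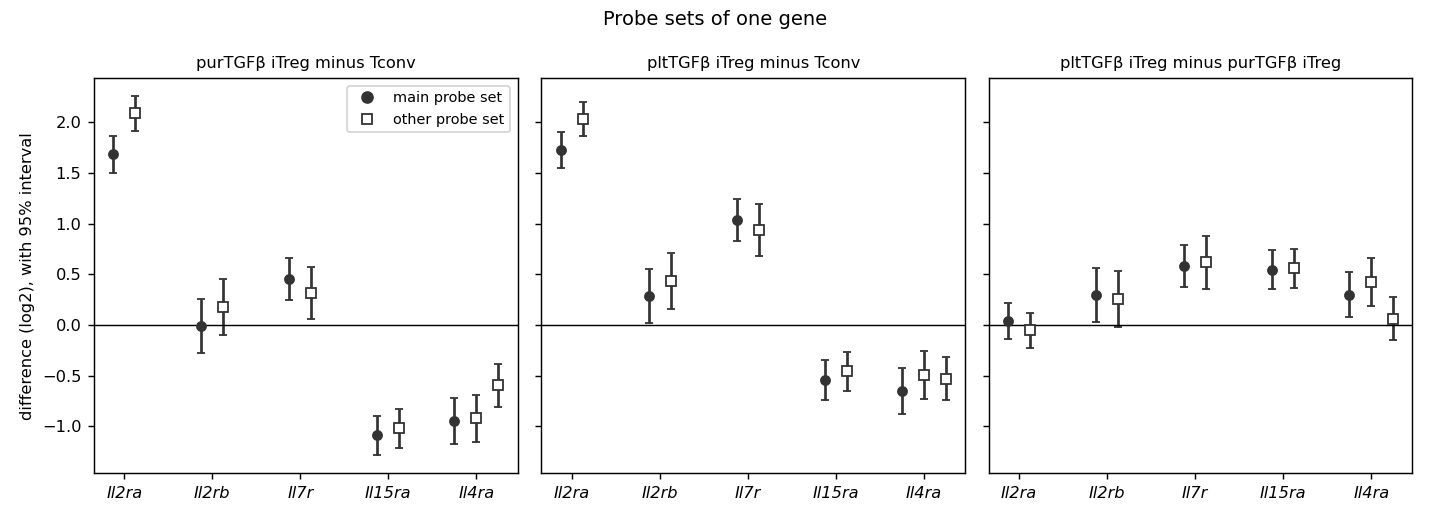
Differences (log2, with 95% intervals) from the main and the other probe sets of the 5 receptor genes that have more than 1, for the 3 comparisons. The probe sets of a gene lie on the same side of 0 except for Il2rb in purTGFβ-iTreg against Tconv, at −0.01 and 0.18, and Il2ra between the iTreg groups, at 0.04 and −0.05.

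Likeness of pattern was measured as the root mean square difference over the 9 arrays of log2 values centred on each gene's mean. Among the receptor genes, Il15ra and Il21r were nearest at 0.114, followed by Il4ra and Il15ra at 0.152 and Il4ra and Il21r at 0.177, while Il2ra and Il21r were farthest apart at 1.25. Of 16312 other genes, the nearest to Il2ra were Mier1 (0.0741), Arfgef1 (0.0763) and Selenot (0.0777). Those nearest to Il7r were Pde3b (0.085), Gnl3 (0.0861) and Qtrt2 (0.0866). Il4ra was nearest to Cd6 (0.0348), a T cell surface receptor, to the cell cycle inhibitor Cdkn1a (0.0589) and to the adaptor Dok2 (0.0721). Those nearest to Il15ra were Mcu (0.0644), the channel of the mitochondrial calcium uniporter, Rpp40 (0.0847) and Cinp (0.0858). Il21r was nearest to Tnfrsf18 (0.0682), the receptor GITR, and to Insl6 (0.0724) and Pdia5 (0.074). These lists rest on small differences in rank: with arrays rescaled or left out, between 0 and 3 of the 3 genes were shared for Il2ra and Il7r, and between 1 and 3 for the others.

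The genes around the receptors were taken from lists by role, starting with the ligands. Counts for each list are to be read beside the shares of all genes called, 29.3%, 28.5% and 4.11% in the 3 comparisons. List medians are to be read beside those of all genes, −0.17, −0.16 and 0.01. Il2, produced by activated T cells themselves, separated the iTreg groups more than any other of the 8 ligand genes. It read 7.93, 7.85 and 7.52 in Tconv, 4.56, 3.87 and 3.99 in purTGFβ-iTreg and 8.29, 8.20 and 8.41 in pltTGFβ-iTreg. The purTGFβ-iTreg arrays lay far below the others, with 1 of the 3 above the range of absent transcripts and 2 at its upper end. Against Tconv, Il2 changed by −3.63 in purTGFβ-iTreg (SE 0.17, limma adjusted p = 1.52e-08). In pltTGFβ-iTreg it was higher than in Tconv by 0.54 (SE 0.17, adjusted p = 0.0213), a call lost at 0.35 on quantile normalising again, at 0.41 without the third Tconv array and at 0.48 without the third pltTGFβ-iTreg array. The iTreg groups differed by 4.17 (SE 0.17, limma adjusted p = 1.31e-07), for a ligand whose receptor gene Il2ra did not pass the test there. With purTGFβ-iTreg at or near the absent level, these 2 differences are of RMA values and no fold of the transcript is given.

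Il4 read 6.94, 6.83 and 6.90 in Tconv, 3.85, 3.93 and 3.76 in purTGFβ-iTreg and 4.48, 4.43 and 4.29 in pltTGFβ-iTreg. Both iTreg groups were lower, by −3.04 (limma adjusted p = 3.3e-10) and −2.49 (adjusted p = 2.89e-09), and pltTGFβ-iTreg was 0.56 above purTGFβ-iTreg (adjusted p = 0.00213). The purTGFβ-iTreg arrays of Il4 lay inside the range of absent transcripts and the pltTGFβ-iTreg arrays just above it. Il13, the related cytokine that uses Il4ra, fell by 1.42 and 1.32 (limma adjusted p = 4.13e-07 and 8.17e-07). Its arrays read 5.36 to 5.61 in Tconv and 4.04 to 4.34 in the iTreg groups, the latter just above the range of absent transcripts. The difference of Il13 between the iTreg groups was 0.10 and was not called. Il9 ranged from 4.66 to 5.37 and was not called, at 0.15, 0.35 and 0.20. Its 0.35, for pltTGFβ-iTreg against Tconv, had a limma adjusted p of 0.019 and missed only the fold cutoff. Il7, Il15, Il21 and Tslp read 2.48 to 3.10 on their main probe sets, inside the range of absent transcripts, and were not called. In all, 0 ligand genes rose and 3 fell in purTGFβ-iTreg against Tconv, 1 rose and 2 fell in pltTGFβ-iTreg against Tconv, and 2 were higher and 0 lower in pltTGFβ-iTreg than in purTGFβ-iTreg. Their median differences were −0.14, −0.07 and 0.14.

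Of the 3 receptor partners outside the γ chain family, Crlf2, which joins Il7r in the TSLP receptor, fell by 0.56 in purTGFβ-iTreg (limma adjusted p = 0.000266), a call lost at −0.50 with array medians centred. It differed by −0.49 in pltTGFβ-iTreg (adjusted p = 0.000689), just under the log2 cutoff of 0.5, and by 0.06 between the iTreg groups. The difference in pltTGFβ-iTreg was called at −0.56 on quantile normalising again, −0.51 with array weights, −0.57 without the first Tconv array, and −0.51 and −0.52 without the first and the second pltTGFβ-iTreg array. Il13ra1 (3.09 to 3.64) and Il13ra2 (3.43 to 4.15) read near the absent level and were not called.

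**Figure D4:**
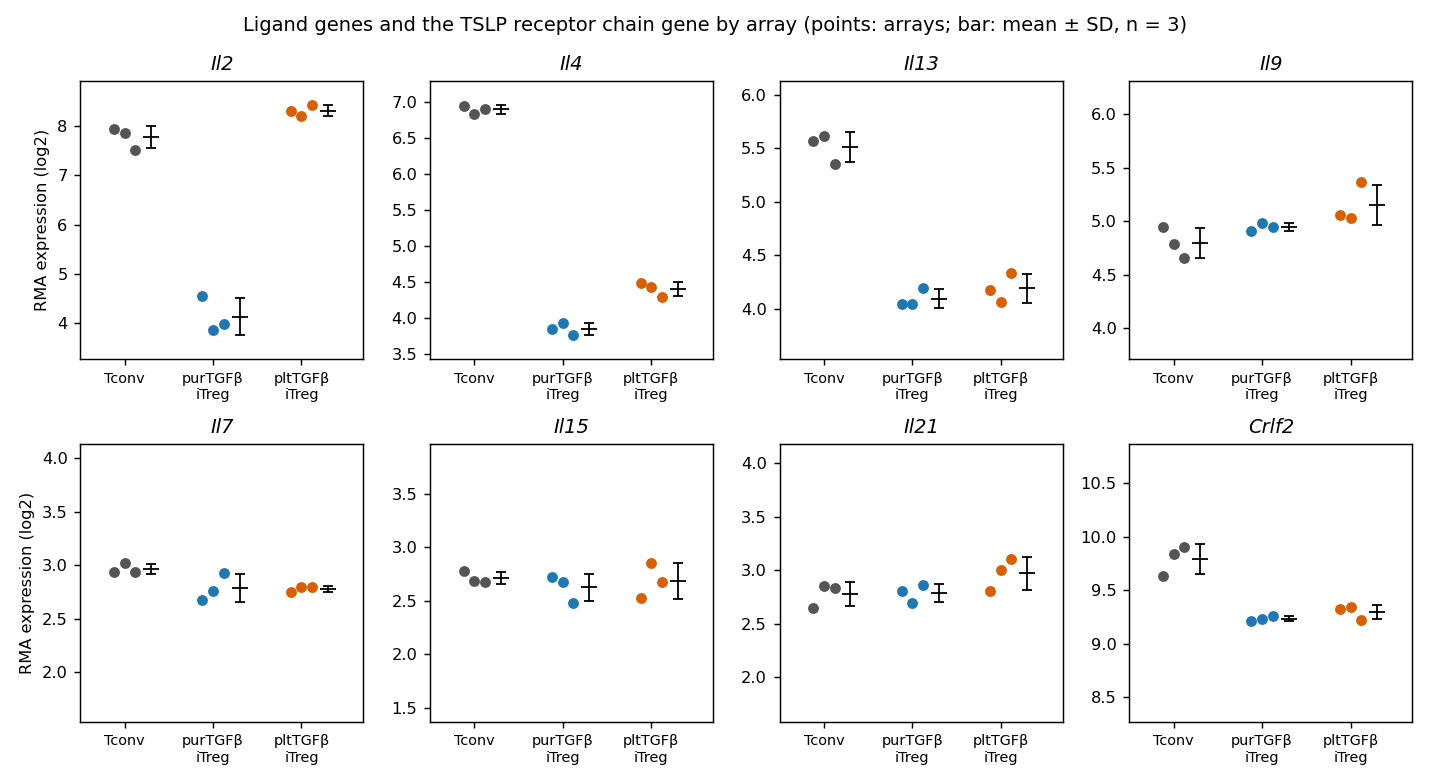
RMA expression (log2) of 7 ligand genes and of Crlf2 by array, 1 point per array, with the mean ± SD (n = 3) as a bar; each panel has its own axis range. The Il2 panel shows purTGFβ-iTreg at 3.87 to 4.56 and the other groups at 7.52 to 8.41, and the Il4 and Il13 panels show both iTreg groups below Tconv.

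Of the 7 kinases and STAT factors measured, none rose: 2 fell in purTGFβ-iTreg against Tconv, 3 fell in pltTGFβ-iTreg against Tconv and 0 were called by limma, with or without moderated variances, between the iTreg groups, where 3 had an unadjusted p under 0.05. Without the first Tconv array 5 fell in pltTGFβ-iTreg, and without the first purTGFβ-iTreg array 2 were lower in pltTGFβ-iTreg than in purTGFβ-iTreg. The medians were −0.44, −0.48 and −0.17. Jak3, the kinase of the γ chain, read 8.29, 8.75 and 9.06 in Tconv, 7.72, 7.90 and 7.93 in purTGFβ-iTreg and 7.75, 7.72 and 7.71 in pltTGFβ-iTreg, and fell by 0.85 and 0.97 (limma adjusted p = 0.000835 and 0.000317). Its Tconv arrays were spread widely but did not overlap the others. Tyk2, a related kinase that acts in other cytokine receptors, fell by 0.72 and 0.67 (adjusted p = 0.000217 and 0.000379), and its second probe set was not called at −0.45 and −0.28.

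Stat5a, a main transducer of IL2, fell by 0.75 in pltTGFβ-iTreg (limma adjusted p = 0.000224) and differed by −0.44 in purTGFβ-iTreg (adjusted p = 0.00853), under the fold cutoff. The latter was called, at −0.50, on quantile normalising again. Its second probe set was not called, at −0.18 in purTGFβ-iTreg and −0.42 in pltTGFβ-iTreg. Stat3, used by IL21, differed from Tconv by 0.47 in purTGFβ-iTreg and 0.02 in pltTGFβ-iTreg and by −0.45 between the iTreg groups, and 1 of its 4 probe sets was called higher, at 0.63, in purTGFβ-iTreg. Its difference from Tconv in purTGFβ-iTreg was called at 0.53 both with array medians centred and without the first purTGFβ-iTreg array, and that between the iTreg groups at −0.51 without the latter.

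Among the 8 adaptors and early signalling genes, 2 rose in each iTreg group and 0 fell, and 1 was lower in pltTGFβ-iTreg than in purTGFβ-iTreg, with medians of −0.06, −0.05 and −0.03. Against Tconv these counts are near the shares of all genes called, 29.3% and 28.5%. Pik3r1, a regulatory subunit of PI3-kinase, rose from 6.05 ± 0.21 in Tconv to 9.01 ± 0.04 in purTGFβ-iTreg and 8.26 ± 0.22 in pltTGFβ-iTreg (SD, n = 3 each). Its differences were 2.96, 2.21 and −0.75 (limma adjusted p = 8.63e-09, 9.07e-08 and 0.00397), and 3 of its 4 probe sets were called higher against Tconv in each iTreg group. Sos1, an exchange factor of Ras, gave 1.55 and 1.63 (adjusted p = 3.99e-07 and 3.14e-07) on its brightest probe set, the only 1 of 5 that was called. The others went down to −0.42, and the mean of all 5 gave 0.23 and 0.35, so its direction rests on 1 probe set. Grb2 and Gab2, adaptors upstream of Ras and PI3-kinase, were not called on their main probe sets, with differences from −0.31 to 0.24, and 1 of the 3 Gab2 probe sets was called lower, at −0.73, in pltTGFβ-iTreg than in purTGFβ-iTreg.

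Negative regulators of cytokine signalling included Socs2, whose differences from Tconv were the largest among the genes of the role lists. Socs2 rose from 8.31 ± 0.06 in Tconv to 12.46 ± 0.03 in purTGFβ-iTreg and 12.20 ± 0.02 in pltTGFβ-iTreg (SD, n = 3 each), by 4.14 and 3.89 (limma adjusted p = 1.13e-11 and 3.49e-11). All 6 Socs2 probe sets were called higher in purTGFβ-iTreg and 5 in pltTGFβ-iTreg. Socs3 rose by 0.65 and 1.06 (adjusted p = 0.000103 and 1.87e-06), the first lost at 0.43 on quantile normalising again. Ptprc, the phosphatase CD45, rose by 0.69 in pltTGFβ-iTreg (adjusted p = 1.07e-05) and differed by 0.48 in purTGFβ-iTreg (adjusted p = 0.000205), under the fold cutoff. The latter difference was called at 0.54 with array medians centred. Cish fell by 0.59 in purTGFβ-iTreg (adjusted p = 0.000165) and differed by −0.36 in pltTGFβ-iTreg (adjusted p = 0.00585), under the fold cutoff. In all, 2 of the 8 rose and 1 fell in purTGFβ-iTreg, 3 rose and 0 fell in pltTGFβ-iTreg, and 0 were called by limma, with or without moderated variances, between the iTreg groups, where 5 had an unadjusted p under 0.05. These counts use the brightest probe set of each gene. Between the iTreg groups, 2 of the 6 Socs2 probe sets were called lower in pltTGFβ-iTreg, down to −0.71, and 1 of the 3 Socs3 probe sets was called higher, at 0.58. Without the third pltTGFβ-iTreg array 5 of the 8 rose in pltTGFβ-iTreg against Tconv. The medians were 0.29, 0.46 and 0.19.

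The 15 genes listed as targets of IL2 and STAT5, which leave out the negative regulators above, moved both ways. In purTGFβ-iTreg against Tconv 4 rose and 7 fell, in pltTGFβ-iTreg against Tconv 6 rose and 5 fell, and between the iTreg groups 5 were higher with platelet lysate and 0 lower. The medians were −0.12, 0.31 and 0.33. Gzmb, the cytotoxic protease granzyme B, read 10.18, 10.11 and 10.03 in Tconv, 6.66, 6.70 and 6.89 in purTGFβ-iTreg and 11.80, 11.68 and 11.63 in pltTGFβ-iTreg. As with Il2, purTGFβ-iTreg lay far below Tconv and pltTGFβ-iTreg above it, at −3.36 and 1.60 (limma adjusted p = 2.62e-10 and 8.9e-08), with 4.95 between the iTreg groups (SE 0.09, adjusted p = 2.16e-10).

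Pim2, a survival kinase, fell by 1.90 and 0.86 against Tconv and was 1.04 higher in pltTGFβ-iTreg than in purTGFβ-iTreg (limma adjusted p = 8.84e-09, 4.61e-06 and 1.37e-05). Tnfrsf4, the costimulatory receptor OX40, had the same order of groups at −1.41, −0.73 and 0.68 (adjusted p = 5.66e-08, 1.26e-05 and 0.000311). That order of means, Tconv highest and purTGFβ-iTreg lowest, was also the order of Il4ra, Il15ra and Il21r, though Il4ra was not called between the iTreg groups. Other listed genes, among them Cdkn1a and Gfi1, had it too. Lta, the cytokine lymphotoxin α, rose by 1.65 and 1.85 (limma adjusted p = 3.91e-08 and 2.25e-08) and differed by 0.20 between the iTreg groups, as Il2ra did by 0.04.

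Factors known to act on the receptor genes were the last list. Of 14, 6 rose and 3 fell in purTGFβ-iTreg, 6 rose and 2 fell in pltTGFβ-iTreg, and 3 were higher and 1 lower in pltTGFβ-iTreg than in purTGFβ-iTreg, with medians of 0.27, 0.31 and −0.02. Klf2, a factor of quiescent T cells, read 5.13, 5.44 and 5.34 in Tconv, 8.33, 8.18 and 8.48 in purTGFβ-iTreg and 6.93, 7.04 and 6.93 in pltTGFβ-iTreg. It rose by 3.03 and 1.66 and was lower by −1.37 in pltTGFβ-iTreg than in purTGFβ-iTreg (limma adjusted p = 1.99e-09, 1.89e-07 and 1.19e-05).

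Gfi1, a repressor with a known role at Il7r, fell by 1.80 and 0.91 and was 0.89 higher in pltTGFβ-iTreg than in purTGFβ-iTreg (limma adjusted p = 2.39e-08, 5.66e-06 and 0.000102). Gabpa, an Ets-family activator of Il7r, rose by 1.51 and 1.46 (adjusted p = 1.57e-07 and 2.44e-07) on its brightest probe set, and its second probe set was called higher in both as well. Runx1 rose by 2.03 and 1.81 (adjusted p = 9.88e-09 and 2.94e-08), with 3 of its 6 probe sets called higher in each group. Between the iTreg groups Gabpa differed by −0.05 and Runx1 by −0.22, neither called. Any effect of the listed factors on Il7r or the other receptor genes was not tested.

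**Figure D5:**
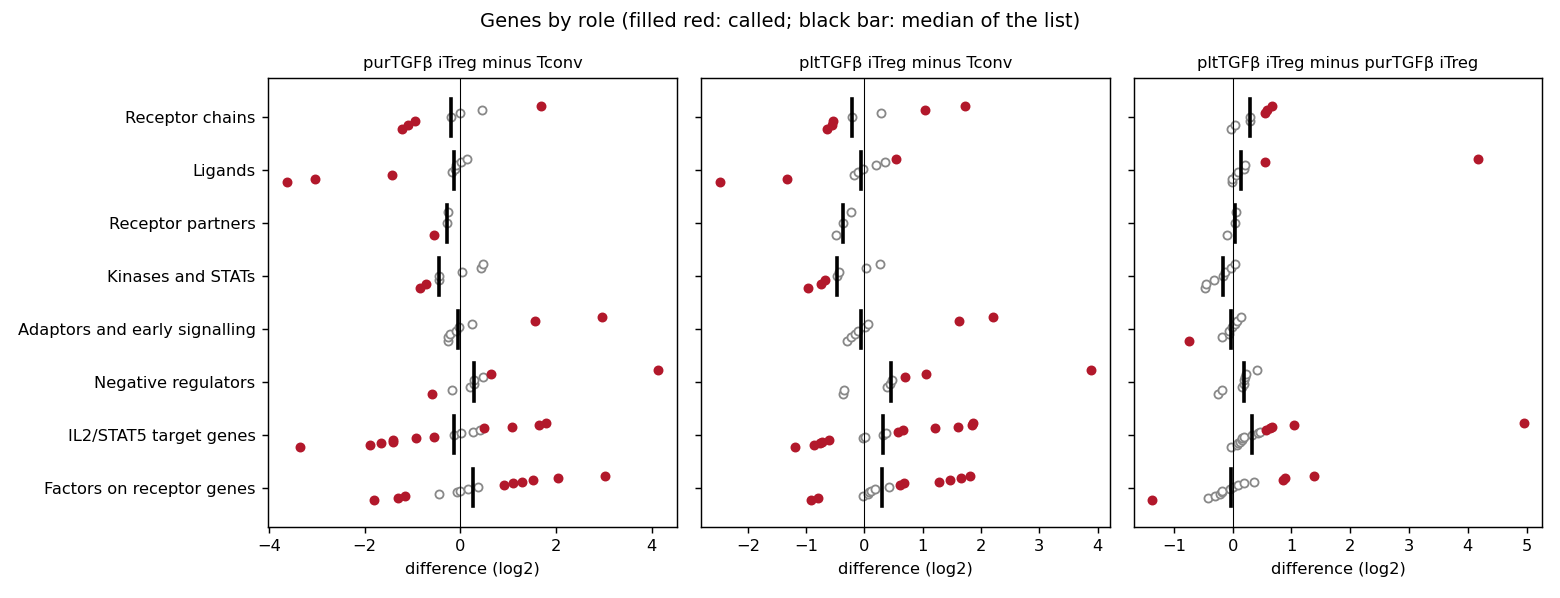
Differences (log2) of the receptor genes and of the genes in 7 lists by role for the 3 comparisons, 1 point per gene; filled points were called and black bars are list medians. Between the iTreg groups, in the right panel, the called receptor, ligand and target genes all lie above 0, and the points farthest right are Gzmb at 4.95 and Il2 at 4.17.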

How the data were processed

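The deposited table holds log2 values; the series' design text says that the authors ran RMA with Expression Console and used Partek Genomics Suite 6.6 for ANOVA with false discovery control. RMA compresses values near background, so folds of dim genes are understated. No detection calls were used. The table held 45101 probe sets, of which 64 controls were left out. The platform annotation named 34945 of the rest by 1 symbol and 932 by more than 1, and did not list 9160.

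Each gene was represented by the probe set with the highest mean over 9 arrays (cross-hybridising ones only where no other existed). The 3 comparisons were contrasts of 1 limma model (limma 3.58.1, R 4.3.3) over all 9 arrays, and intervals are at the 95% level. The code was also run on simulated arrays with independent noise and far fewer changed probe sets than were called here. That run checked the code only, not how well the model suits these data. The number of arrays limits the precision. The design text calls the replicates biological; whether they were separate animals or cultures of a pool is not given in the sources used here, so p-values measure the spread between these samples. An exact test of 3 against 3 arrays cannot reach a p under 0.1 and was not used. The receptor genes and the lists were chosen with earlier results of these data known.

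Named beside the receptor genes were all ligands and partners, up to 4 genes of each other list by lowest adjusted p, and the 3 genes nearest in pattern to each called receptor gene; Foxp3, sex-linked genes and called marker genes were named as checks. Promoter sequences and gene order came from RefSeq tables of assembly GRCm38.p6. Alternatives were quantile normalising again, centring array medians, leaving out the dimmest 40% of probe sets, an intensity trend with robust variances, unmoderated ANOVA, array weights, only the 6 arrays compared, the replicate number as a block, other cutoffs, averaging the probe sets of each gene, and leaving out each array. Alternatives for list genes and for nearest genes were added after seeing the data. Figures and summaries used matplotlib 3.10.9 and pandas 2.3.3 under Python 3.11.15.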

Additional observations from a re-analysis of the deposited data

Results flagged for a closer look

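Il2 was called lower than Tconv in purTGFβ-iTreg (log2 difference −3.63) and higher in pltTGFβ-iTreg (0.54), and the difference between the iTreg groups was itself tested with limma at 4.17. All 3 pltTGFβ-iTreg arrays lay above, and all 3 purTGFβ-iTreg arrays below, all 3 Tconv arrays. The higher level against Tconv lost its call under the settings named beside it in the report, while the difference between the iTreg groups kept its call under every alternative run.

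Gzmb had the same pattern, at −3.36 and 1.60 against Tconv, with a tested difference between the iTreg groups of 4.95. Both genes were called in opposite directions against the same Tconv arrays, and none of the 7 receptor genes was.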

How the results depend on the processing

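The receptor genes gave 417 values under the alternatives. Of these, 392 kept their direction and their side of the cutoffs, 12 lost a call, 4 gained one and 9 changed sign. Several alternatives leave the log2 difference of a gene unchanged by design, so its direction could not change. These were the intensity trend with robust variances, unmoderated ANOVA, only the arrays compared, the replicate block and the other cutoffs. Leaving out dim probe sets, or an array of the group not compared, also left it unchanged. The count of 392 therefore overstates how far direction was tested. At an adjusted p under 0.05 and a log2 difference above 1, 3 of the 7 receptor genes were called in purTGFβ-iTreg against Tconv, 2 in pltTGFβ-iTreg against Tconv, both higher, and 0 between the iTreg groups, where 5 had an unadjusted limma p under 0.05. The calls lost had adjusted p-values under 0.05 and differences under 1. Unmoderated ANOVA at the authors' cutoffs gave 4, 5 and 3. Leaving out 1 array gave 4 to 5, 4 to 5 and 2 to 3 calls. With no fold cutoff, Il7r was also called in purTGFβ-iTreg and Il2rb in pltTGFβ-iTreg, both against Tconv. Over all genes the strict cutoffs called 2033, 1839 and 169, and no fold cutoff 11542, 10996 and 1768, against 5339, 5194 and 748.

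The labels give the groups the same replicate numbers. Same-numbered arrays of the iTreg groups had deviations correlated at 0.194, 0.262 and 0.092, each array correlating best with its own number. With Tconv the same-numbered correlations ran from −0.123 to 0.085. The labels do not say that the numbers pair samples, and they were not taken as pairs in the main model. With the replicate number as a block over all 9 arrays the counts of called receptor genes stayed at 4, 5 and 3. A pairing of the iTreg groups alone was not tested.

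Sign changes were found, among the values named, for differences that were not called. With array medians centred, Il2rb in purTGFβ-iTreg against Tconv was 0.051 and Il15 in pltTGFβ-iTreg against Tconv 0.030. Averaging the probe sets of each gene gave 0.085 for Il2rb and −0.12 for Il21 in purTGFβ-iTreg against Tconv, −0.043 for Grb2 in pltTGFβ-iTreg against Tconv, and −0.0052 for Il2ra, 0.013 for Il7, −0.026 for Il13ra1 and 0.045 for Gabpa between the iTreg groups. Array weights gave −0.018 for Il21 (purTGFβ-iTreg against Tconv), −0.012 for Stat3 (pltTGFβ-iTreg against Tconv) and 0.021 for Tslp (between the iTreg groups), and quantile normalising again gave 0.014 for Il15, −0.070 for Stat3 and −0.033 for Grb2 in pltTGFβ-iTreg against Tconv. The cause was not tested. Leaving out 1 array moved Il2rb from −0.16 to 0.097 and Il21 from −0.053 to 0.059 in purTGFβ-iTreg against Tconv, and Il15 from −0.11 to 0.055 and Stat3 from −0.029 to 0.048 in pltTGFβ-iTreg against Tconv. Between the iTreg groups it moved Il2ra from −0.0062 to 0.091, Il9r from −0.099 to 0.042, Il7 from −0.061 to 0.067, Tslp from −0.060 to 0.030, Il15 from −0.025 to 0.14, Il13ra1 from −0.044 to 0.082, Il13ra2 from −0.22 to 0.028, Gab2 from −0.096 to 0.0051 and Gabpa from −0.12 to 0.017. Leaving out the dimmest 40% of probe sets removed Il9r, which then had no value. No scaling moved the median of all genes by over 0.1.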
